A study of Mus musculus with 6 samples.

Results

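The genes described here are 10 transcriptional targets of lipid- and retinoid-sensing nuclear receptors, chosen by name with earlier results of these data known. They are 6 targets of the liver X receptors (LXR), namely Abca1, Abcg1, Srebf1, Mylip, Lpcat3 and Scd2, 3 targets of retinoic acid signalling, namely Dhrs3, Cyp26b1 and Tgm2, and the lipid droplet gene Plin2. All 10 were found, once each, among the 55487 genes of the deposited count table. Total RNA was sequenced from lymphocytes sorted from small intestinal epithelium of C57BL/6J mice, labelled wild-type in both groups. Every sorted cell carried CD45, the phosphatase of all white blood cells, and CD3ε, a chain of the T cell receptor complex. B220 is a CD45 isoform typical of B cells. Cells without it made up the group labelled T cells (3 libraries, called B220- here), and cells with it made up the group labelled X cells (3 libraries, called B220+ here). No label gives the age of the mice or says whether a library came from 1 animal or from several, so p-values measure only the spread between these libraries, which may be technical. An RXR (retinoid X receptor) agonist appears in the title of the series, but no library is labelled as treated with it, so the levels below are those of cells with no treatment named.

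LXR are nuclear receptors that bind oxysterols and, as partners of RXR, switch on genes that move cholesterol out of cells, shut off its uptake and make fatty acids and phospholipids. Retinoic acid receptors (RAR) also work as partners of RXR. In the gut, retinoic acid made from dietary vitamin A is known for giving T cells their homing receptors, and the genes it induces include enzymes that lower its own level. Peroxisome proliferator-activated receptors (PPAR), which also partner RXR, are sensors of fatty acids, and Plin2 is among their targets.

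LXR and RXR bind DNA at pairs of hexamers spaced by 4 bases. Promoter sequence from RefSeq (build GRCm38.p6) was at hand for 7 of the 10 genes, not for Abcg1, Scd2 and Tgm2, in 11 windows of 300 bases (250 before and 50 after a start site). The bases before the start site of Abca1 and of the innermost of the 3 Srebf1 starts are shown because they hold the same element (GGGTTA, any 4 bases, then CGGTCA) and yet, as described below, lie at genes with very different transcript levels. Both read 5′ to 3′ on the strand of the gene, the minus strand, and the capitals mark the element, which lies on the other strand in both.
Abca1, chr4:53159896-53160145: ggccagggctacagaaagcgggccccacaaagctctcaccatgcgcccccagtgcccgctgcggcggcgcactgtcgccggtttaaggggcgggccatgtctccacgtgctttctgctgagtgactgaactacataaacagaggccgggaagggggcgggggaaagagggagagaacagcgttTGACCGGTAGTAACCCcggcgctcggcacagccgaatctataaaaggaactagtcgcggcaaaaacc
Srebf1, chr11:60210472-60210721: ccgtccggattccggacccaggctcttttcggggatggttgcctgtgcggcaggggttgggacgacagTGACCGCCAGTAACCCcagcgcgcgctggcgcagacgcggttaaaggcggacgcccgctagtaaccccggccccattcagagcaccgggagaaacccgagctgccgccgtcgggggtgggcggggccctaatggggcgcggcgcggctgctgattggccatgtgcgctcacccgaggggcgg
Read on its own strand, the element was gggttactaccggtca in Abca1, at bases -67 to -52 from the start site, and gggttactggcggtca in Srebf1, at bases -182 to -167. The Srebf1 window lies inside the gene, at a start site downstream of the other 2, and the gene counts do not tell transcripts of these starts apart. The element was spelled after these windows had been read. Of 32817 mouse promoter windows of this length, 3 (0.00914%) hold it exactly on either strand, and 203 (0.619%) hold it with up to 1 mismatch in each hexamer. Among the 11 windows of the target genes, the Abca1 and Srebf1 windows were the only ones with a match to it at either stringency. Direct repeats of AGGTCA spaced by 1, 2, 4 or 5 bases, searched on both strands with up to 1 mismatch in each hexamer, were in none of the 11 windows (in 2.4%, 1.94%, 1.75% and 1.64% of all windows). A match of letters is a description, and binding was not measured here.

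The 6 libraries held 11320363 to 39591312 counted reads, the deepest being B220+ replicate 2. Levels are in CPM, the counts of a gene in every 1000000 of the scaled library total, and values with ± are means and SD over 3 libraries. Of 14722 genes that passed the filter on low counts, 1639 (11.1%) were called by edgeR's quasi-likelihood test at a Benjamini-Hochberg adjusted p under 0.05, with 5.58% called higher and 5.56% lower in B220+ cells. Of the 10 target genes, 8 passed the filter. Among them Abcg1 and Plin2 were called higher and Dhrs3 lower, and the other 5 were not called (3 of 8, or 37.5%). The groups did not overlap for 4 of the 8, Abcg1, Scd2, Plin2 and Dhrs3, against 28.1% of all genes tested. The median log2 fold change of the 8 was 0.23, against -0.0074 over all genes tested. Replicate numbers went together with shared deviations between the groups, and in a fit with that number as a block 4 of the 8 were called higher (Mylip and Tgm2 besides) and 1 lower, where 17.5% of all genes tested (2569) were called. Of the T cell markers, all 9 had counts in every library, with a summed level of 7705 to 8141 CPM in B220- and 7540 to 8111 CPM in B220+ cells, and 1 of them, Cd247, fell (236 ± 22.9 to 166 ± 9.01 CPM, edgeR adjusted p = 0.00107). In bulk RNA, fewer cells of a type and less RNA in each cell cannot be told apart, and this holds for every difference below.

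**Figure D1:**
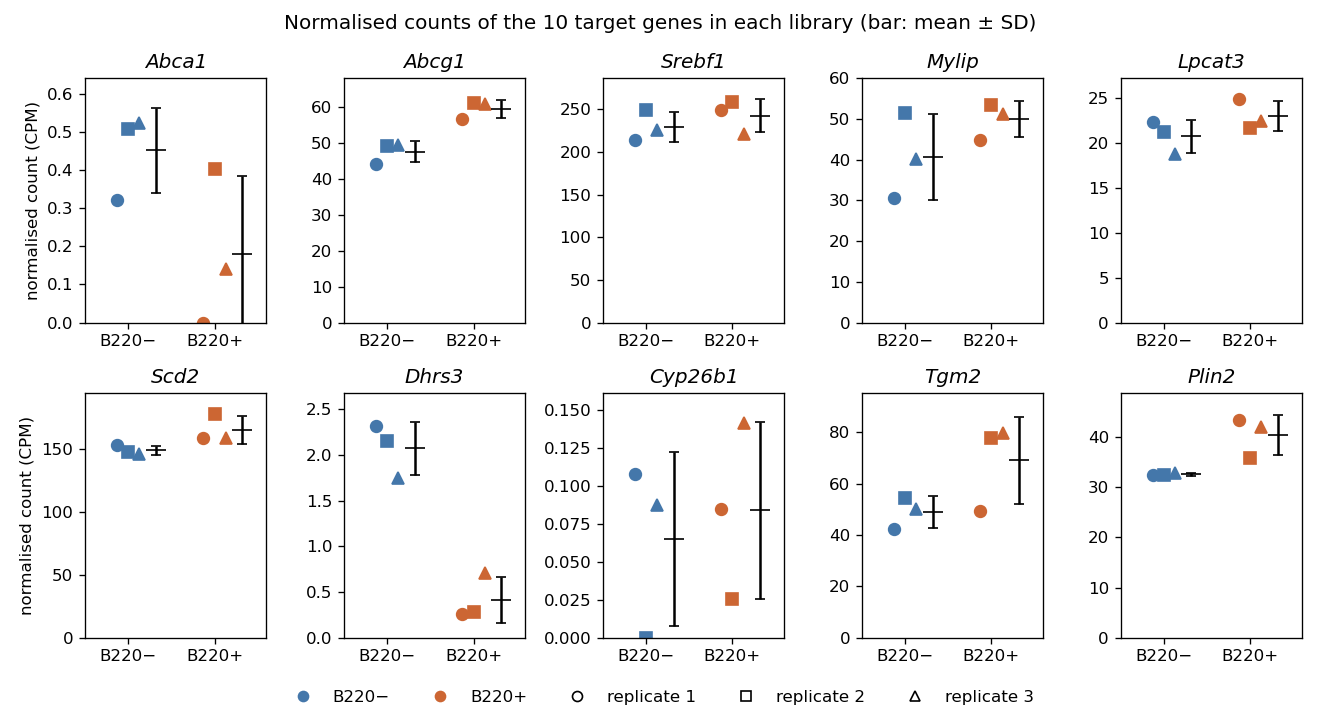
Normalised counts (CPM, linear axes from 0) of the 10 target genes in each of the 6 libraries, B220- in blue and B220+ in orange, with symbols for the replicate number and a bar for mean ± SD (n = 3). Dhrs3 lay at 1.75 to 2.32 CPM in B220- and at 0.255 to 0.707 CPM in B220+ libraries, and Abcg1, Scd2 and Plin2 were higher in every B220+ than in any B220- library. The SD bar of Abca1 in B220+ cells runs below 0 and is cut at the axis.

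Sterol efflux was represented by 2 transporters at very different levels. Gene positions, on mm10 here and below, are those of GENCODE, and each gene is protein-coding with counts summed over its exons. Abca1 (ENSMUSG00000015243, chr4:53030787-53159895, minus strand), which passes cholesterol and phospholipid to lipid-poor apolipoprotein A-I, was close to undetected. It had 6, 9 and 6 counts in B220- replicates 1 to 3 and 0, 16 and 2 counts in B220+ replicates 1 to 3. That is 0.323, 0.510 and 0.525 CPM against 0, 0.403 and 0.141 CPM. The 0 of B220+ replicate 1 allows a level of up to 0.255 CPM (3 counts), and the groups overlapped. Abca1 failed the filter and was not tested; the depth-corrected ratio of B220+ to B220- pooled counts was 0.622, with an exact 95% interval of 0.313 to 1.23 that covers counting error only. That ratio rested on B220+ replicate 2 and was 0.175 without it.

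Abcg1 (ENSMUSG00000024030, chr17:31057675-31117988, plus strand), which hands cholesterol to mature high-density lipoprotein, was expressed about midway among the tested genes. It stood at 44.1, 49.0 and 49.3 CPM in B220- replicates 1 to 3, and at 56.6, 61.0 and 60.7 CPM in B220+ replicates 1 to 3. The means were 47.4 ± 2.93 and 59.4 ± 2.48 CPM. Every B220+ library lay above every B220- library, as was so for 14.1% of all genes tested. The rise was 1.26-fold (log2 fold change 0.33, SE 0.075, edgeR adjusted p = 0.0126). Between libraries of the same replicate number the ratio varied little, at 1.28, 1.25 and 1.23. The edgeR adjusted p was 0.0657 without B220+ replicate 2 and 0.0532 without B220+ replicate 3, with log2 fold changes of 0.31 and 0.32.

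Among the lipid synthesis targets no member was called. Srebf1 (ENSMUSG00000020538, chr11:60199089-60222581, minus strand) encodes SREBP-1, the transcription factor that drives fatty acid synthesis. Its levels were 213, 249 and 225 CPM in B220- and 249, 258 and 220.4 CPM in B220+ replicates 1 to 3. The groups overlapped (edgeR adjusted p = 0.623, log2 fold change 0.083, SE 0.080). Scd2 (ENSMUSG00000025203, chr19:44293674-44306864, plus strand), a stearoyl-CoA desaturase that makes monounsaturated fatty acids, had 153, 148 and 146 CPM in B220- and 159, 178 and 159 CPM in B220+ replicates 1 to 3. Its groups did not overlap, and the difference was not called after adjustment over all genes (unadjusted p = 0.0479 by edgeR, log2 fold change 0.15, SE 0.069, edgeR adjusted p = 0.216), and the replicate block did not lead to a call (edgeR adjusted p = 0.0961). Lpcat3 (ENSMUSG00000004270, chr6:124663027-124704418, plus strand), which puts polyunsaturated chains into membrane phospholipids, had a mean of 20.7 ± 1.84 CPM without B220 and of 23.0 ± 1.69 CPM with it (n = 3 each). Its libraries overlapped at 18.7 to 22.3 and 21.6 to 24.9 CPM (edgeR adjusted p = 0.517). Emg1, a gene on the opposite strand, shares 334 exonic bases with Lpcat3 and had 402% of its counts. Whether counting used strand is not given in the sources used here, so reads in shared bases may not be told apart. Emg1 fell 1.25-fold (edgeR adjusted p = 0.0249). Srebf1 shares 109 exonic bases with the opposite-strand gene Rai1, whose counts were 43.1% of its own and which was not called (edgeR adjusted p = 0.946).

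Mylip (ENSMUSG00000038175, chr13:45389742-45412022, plus strand) encodes IDOL, a ubiquitin ligase that LXR induce to limit cholesterol uptake. It varied more among B220- libraries (30.5, 51.5 and 40.1 CPM in replicates 1 to 3) than among B220+ libraries (45.0, 53.5 and 51.4 CPM). The groups overlapped because B220- replicate 2 was above 2 of the B220+ libraries. The difference was 1.23-fold and not called (log2 fold change 0.30, SE 0.19, edgeR adjusted p = 0.435). With the replicate block Mylip was called (edgeR adjusted p = 0.0231), as within each replicate number the B220+ library was the higher, by 1.47-fold, 1.04-fold and 1.28-fold. Without B220- replicate 2 it was called as well (log2 fold change 0.52, edgeR adjusted p = 0.0145). Lrp8, which encodes ApoER2, a substrate of IDOL, fell from 9.91 ± 0.915 to 6.65 ± 0.660 CPM (edgeR adjusted p = 0.0301). Leaving out 1 library at a time, 5 of 6 fits lost the Lrp8 call.

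Of the 3 retinoid targets, 2 were tested and 1 was called, where 11.1% of all genes tested were called. Dhrs3 (ENSMUSG00000066026, chr4:144892827-144928209, plus strand), a retinaldehyde reductase that draws the precursor of retinoic acid back to retinol, was the target gene with the greatest fold change among the 8 tested. It had 43, 38 and 20 counts in B220- replicates 1 to 3 and 3, 11 and 10 counts in B220+ replicates 1 to 3. In CPM these were 2.32, 2.15 and 1.75 against 0.255, 0.277 and 0.707. All B220+ libraries lay below all B220- libraries, as was so for 13.9% of all genes tested. The fall was 5.30-fold (log2 fold change -2.40, SE 0.44, edgeR adjusted p = 0.00308), and the ratio of pooled counts was 0.173 (exact 95% interval 0.106 to 0.271, counting error only). Dhrs3 was called in all 10 alternative fits, with edgeR or DESeq2 adjusted p up to 0.0343 and log2 fold changes of -2.92 to -2.06. Its size varied with the library: the log2 difference was -3.19, -2.96 and -1.31 in replicate numbers 1, 2 and 3. Dhrs3 was a weakly expressed gene even in B220- cells. Markers of B and plasma cells summed to 46.3 to 128 CPM in B220- and 38.6 to 59.1 CPM in B220+ libraries (9 of 10 with a count, Mzb1 at 0), and those of granulocytes and mast cells to 5.82 to 16.9 and 3.99 to 5.02 CPM (6 of 9 with a count, S100a8, S100a9 and Ly6g at 0). Markers of other cells that fell with it were Sdc1 (3.77 ± 2.37 to 0.846 ± 0.390 CPM, edgeR adjusted p = 0.0203) and Blk (0.982 ± 0.202 to 0.0875 ± 0.111 CPM, edgeR adjusted p = 0.00421) of B and plasma cells, Mcpt1 (5.60 ± 3.79 to 0.518 ± 0.237 CPM, edgeR adjusted p = 0.0104) of mast cells and Lyz2 (2.07 ± 0.573 to 0.303 ± 0.147 CPM, edgeR adjusted p = 0.00200) of macrophages. Their levels in CPM were of the order of that of Dhrs3, and their part in its fall was not tested. The other tested members of the B and plasma cell list and of the granulocyte and mast cell list were not called. Cd79b stood at 27.4 ± 4.37 and 31.7 ± 1.80 CPM (edgeR adjusted p = 0.357) and Cpa3 at 3.78 ± 1.21 and 3.59 ± 0.525 CPM (edgeR adjusted p = 0.935). Jchain lay lower without a call (log2 fold change -2.03, edgeR adjusted p = 0.401).

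Cyp26b1 (ENSMUSG00000063415, chr6:84571414-84593908, minus strand), the cytochrome P450 that degrades retinoic acid, had 2, 0 and 1 counts in B220- replicates 1 to 3 and 1, 1 and 2 counts in B220+ replicates 1 to 3. It was not tested, and with 3 pooled counts against 4 the depth-corrected ratio of 0.968 had an exact 95% interval of 0.164 to 6.61. Leaving out 1 library moved the ratio to between 0.609 (without B220- replicate 2) and 1.84 (without B220+ replicate 2), on both sides of 1, with 1.77 without B220- replicate 1 and 0.617 without B220+ replicate 3. A difference was not detectable at this depth. Its paralogues Cyp26a1 and Cyp26c1 also failed the filter, with means of 0.161 CPM or less in each group.

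Tgm2 (ENSMUSG00000037820, chr2:158116402-158146436, minus strand) encodes tissue transglutaminase, the autoantigen of coeliac disease and a classical retinoic acid target. Its levels were 42.2, 54.4 and 50.1 CPM in B220- and 49.5, 78.0 and 79.7 CPM in B220+ replicates 1 to 3. B220+ replicates 2 and 3 lay above every B220- library, and B220+ replicate 1 lay within the B220- range. The 1.42-fold difference was not called (log2 fold change 0.51, SE 0.20, edgeR adjusted p = 0.216). Tgm2 was called with the replicate block (edgeR adjusted p = 2.71e-04), with DESeq2 (adjusted p = 0.0103), with no filter on low counts (edgeR adjusted p = 0.00135) and without B220+ replicate 1 (log2 fold change 0.69, edgeR adjusted p = 0.00162). Within replicate numbers 1, 2 and 3 the ratio was 1.17, 1.43 and 1.59. Tgm2 overlaps 2 genes on the other strand. Gm20412 shares 633 exonic bases with Tgm2 and had 27.8% of its counts, and Rprd1b shares 370 and had 86.7%. Gm20412 was at 13.5 ± 1.19 and 19.2 ± 4.96 CPM (1.44-fold, edgeR adjusted p = 0.0882) and Rprd1b at 50.3 ± 1.57 and 56.6 ± 4.18 CPM (1.13-fold, edgeR adjusted p = 0.193). Whether reads of the shared bases were counted for more than 1 gene was not tested.

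Plin2 (ENSMUSG00000028494, chr4:86648386-86670060, minus strand) coats lipid droplets. Its level was nearly the same in the B220- libraries, at 32.4, 32.5 and 33.0 CPM, and was 43.5, 35.98 and 42.2 CPM in B220+ replicates 1 to 3. No library of one group fell within the range of the other. The rise was 1.24-fold (log2 fold change 0.31, SE 0.090, edgeR adjusted p = 0.0449). Leaving out 1 library at a time ended the call in 5 of 6 fits, all but the fit without B220+ replicate 2, with edgeR adjusted p of 0.0793 to 0.154. With DESeq2 the adjusted p was 0.0699. Without B220+ replicate 2, the lowest of its group, the log2 fold change was 0.39. Macrophages also express Plin2, Abcg1 and Tgm2, and the macrophage and dendritic cell list summed to 255 to 327 CPM in B220- and 389 to 537 CPM in B220+ libraries (14 of 14 with a count). Most of that sum was Itgax (CD11c, 278 ± 42.5 and 431 ± 78.5 CPM), which intraepithelial lymphocytes express too. Of the other members tested, Csf1r was at 11.97 ± 1.34 and 11.5 ± 0.847 CPM (edgeR adjusted p = 0.876), Cd68 at 7.0 ± 1.45 and 4.87 ± 0.501 CPM (edgeR adjusted p = 0.122) and Xcr1 at 2.85 ± 0.944 and 1.902 ± 0.135 CPM (edgeR adjusted p = 0.267), and Lyz2 fell as given above. The other 9 failed the filter, with Adgre1 at 0.308 and 0.0817 CPM and Siglech at 0.105 and 1.67 CPM. Epithelial markers summed to 320.0 to 395 and 347 to 441 CPM (18 of 18 with a count, 0 of 16 tested called). Most of that sum was Cdh1 (265 ± 25.0 and 258 ± 16.05 CPM), while Epcam was at 35.9 ± 14.7 and 75.4 ± 6.20 CPM (edgeR adjusted p = 0.170) with every B220+ library above every B220- library. Stroma and endothelium markers summed to 30.7 to 32.3 CPM in B220- and 34.4 to 40.6 CPM in B220+ libraries (9 of 10 with a count, Kdr at 0), with no overlap and most of it Pecam1 (28.9 ± 0.584 and 33.4 ± 3.04 CPM, edgeR adjusted p = 0.177). B220+ replicate 2, the deepest library, stood apart in some genes typical of fat cells and stroma but not in others. It held 90 counts of Fabp4 (2.27 CPM), which had 0 in each other library. It also held 51 of Lpl (1.28 CPM), 12 of Cd36, 13 of Col1a2 and 11 of Dcn. These last 4 genes had at most 2 counts in any other library. In CPM the gap of Dcn was small, at 0.277 against 0.175 in B220- replicate 3. Col1a1 was at 3.80 CPM in B220+ replicate 2 and at 4.24 CPM in B220+ replicate 1, and Pparg had no counts in any library. The part of these lists and genes in the values of Plin2, Abcg1 and Tgm2 was not tested. Without B220+ replicate 2 the log2 fold change of Tgm2 was 0.41 (edgeR adjusted p = 0.446), and those of Abcg1 and Plin2 are given above.

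**Figure D2:**
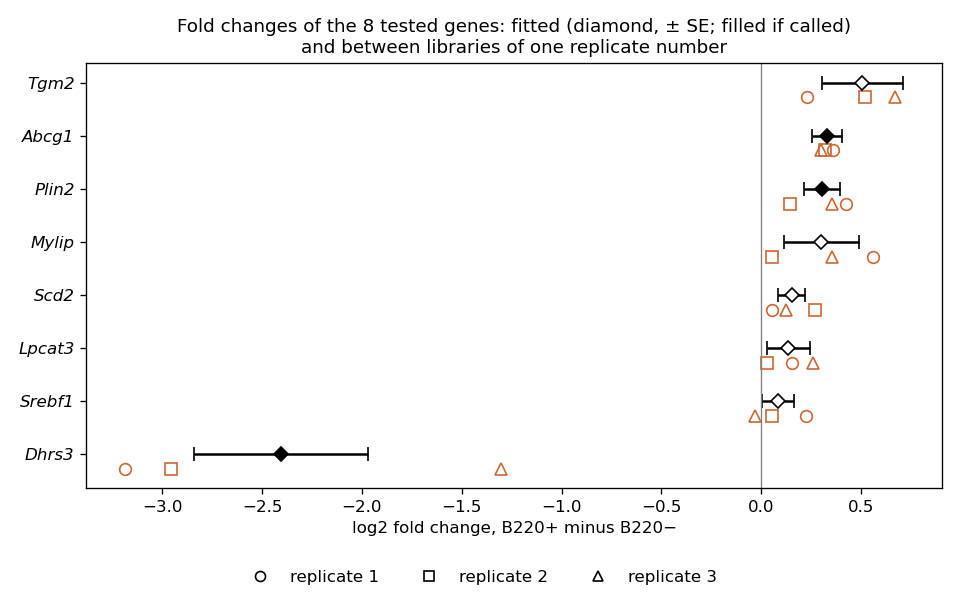
Log2 fold changes (B220+ minus B220-) of the 8 tested target genes, with the edgeR estimate ± SE as a diamond (filled where called) and, below it, the difference between the libraries of each replicate number. The 3 differences of Abcg1 lie close together at 0.30 to 0.36, those of Mylip range from 0.054 to 0.56, and those of Dhrs3 from -3.19 to -1.31.

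Per kilobase of exonic length, Srebf1 was the most abundant of the 10 transcripts, at 40.7 ± 3.22 CPM per kb in B220- and 43.1 ± 3.50 in B220+ cells, above 91.2% of the tested genes by its mean over the groups. Scd2 followed at 27.2 ± 0.658 and 30.2 ± 2.04 CPM per kb. Next came Mylip (12.6 ± 3.25 and 15.4 ± 1.37), Tgm2 (10.6 ± 1.34 and 14.99 ± 3.67) and Plin2 (9.29 ± 0.0803 and 11.5 ± 1.14), whose neighbours in this order overlapped between libraries of a group. Abcg1 (6.50 ± 0.401 and 8.14 ± 0.339) and Lpcat3 (6.34 ± 0.563 and 7.03 ± 0.517) overlapped in B220- but not in B220+ libraries. Dhrs3, at 0.708 ± 0.0999 and 0.141 ± 0.0872, was at a lower tier, and Abca1 and Cyp26b1 lay at 0.0437 or less. The order of the 10 means was the same in both groups, though Abca1 and Cyp26b1 overlapped in B220+ libraries, not in B220- libraries. By their means, Abca1 and Srebf1, which share the element shown above, thus stood at opposite ends of this order, next to last and first. Gene counts do not show from which Srebf1 start site the reads came.

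Few receptor genes were called. Of the 16 genes of LXR, RXR and their coregulators, 15 were tested and 0 called by edgeR, with 5 at an unadjusted p under 0.05, 0 called by DESeq2 and 1 with the replicate block (Ncoa1, a coactivator, log2 fold change -0.29, edgeR adjusted p = 0.0115). Nr1h2, which encodes LXRβ, stood at 162 ± 7.22 and 166 ± 11.4 CPM (edgeR adjusted p = 0.795). Nr1h3, which encodes LXRα, stood at 0.915 ± 0.582 and 0.441 ± 0.164 CPM (edgeR adjusted p = 0.432), and per kilobase of exonic length LXRβ (48.2 and 49.6 CPM per kb) was far above LXRα (0.364 and 0.175 CPM per kb) in both groups. Ratios of the RXR genes were not called either (Rxra, 6.64 ± 2.12 and 4.34 ± 0.829 CPM, edgeR adjusted p = 0.180; Rxrb, 92.7 ± 4.57 and 84.6 ± 4.83 CPM, edgeR adjusted p = 0.325), and Rxrg had no counts. Of the RAR genes, Rara fell from 43.6 ± 0.775 to 27.3 ± 3.27 CPM (edgeR adjusted p = 5.59e-04). Rarg stood at 23.5 ± 2.90 and 28.3 ± 1.16 CPM (edgeR adjusted p = 0.147), and Rarb at 0.512 ± 0.318 and 0.601 ± 0.221 CPM was not tested.

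Other LXR targets, listed with earlier results of these data known, had calls in both directions and mostly positive fold changes. Of 20 listed, 11 were tested, and 2 were called higher and 1 lower (27.3%, against 11.1% of all genes tested). Of the 11, 9 had a log2 fold change above 0, as did 7137 of all 14722 genes tested, and the median of the 11 was 0.19. Pltp, the phospholipid transfer protein of plasma lipoproteins, rose from 129 ± 11.5 to 187 ± 10.1 CPM (edgeR adjusted p = 6.17e-04). Elovl5, which elongates polyunsaturated fatty acids, rose from 124 ± 6.92 to 155 ± 9.86 CPM (edgeR adjusted p = 0.0123), a call that 2 of 6 fits with 1 library left out did not make. Arl4c, a small GTPase of the ARF family, went the other way, from 142 ± 7.18 to 88.5 ± 6.97 CPM (edgeR adjusted p = 1.04e-04). With the replicate block 6 were called higher, the added ones being the fatty acid synthase gene Fasn (log2 fold change 0.34, edgeR adjusted p = 7.68e-04), the desaturase gene Fads2 (0.67, edgeR adjusted p = 0.0159), the ubiquitin ligase gene Rnf145 (0.20, edgeR adjusted p = 0.0180) and Ttc39b (0.19, edgeR adjusted p = 0.0275). Without it these 4 had edgeR adjusted p of 0.0567 to 0.143. Scd1, the main LXR-responsive desaturase gene of liver, failed the filter, with 1, 3 and 5 counts in B220- and 4, 71 and 0 in B220+ replicates 1 to 3, so that its B220+ mean (0.709 ± 0.950 CPM, against 0.220 ± 0.197 CPM in B220-) rested on replicate 2. How reads shared by these near copies were counted is not given, which makes the split between Scd1 and Scd2 uncertain. Apoe stood at 5.01 ± 1.502 and 3.16 ± 0.179 CPM (edgeR adjusted p = 0.130).

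Among genes for sterol sensing and handling, 1 of 16 tested genes was called higher and 2 lower, and with the replicate block 3 lower (Npc1 besides, log2 fold change -0.22, edgeR adjusted p = 0.0499). Mbtps1, the site-1 protease that takes part in releasing SREBP from the membrane, rose from 216 ± 15.2 to 259 ± 4.11 CPM (edgeR adjusted p = 0.0274, not called in 5 of 6 fits with 1 library left out). Soat1, which esterifies cholesterol for storage in droplets, fell from 53.1 ± 6.97 to 37.3 ± 1.98 CPM (edgeR adjusted p = 0.00363), and Lrp8 was the other. Srebf2, the paralogue of Srebf1 that drives cholesterol synthesis, stood at 699 ± 16.8 and 719 ± 46.6 CPM (edgeR adjusted p = 0.818). Among 12 tested paralogues of the target genes 1 was called higher and 3 lower, and with the replicate block 2 higher (Abcg2 besides, log2 fold change 0.77, edgeR adjusted p = 0.0122). Mboat1, a lysophospholipid acyltransferase related to Lpcat3, fell from 3.77 ± 0.175 to 1.17 ± 0.358 CPM (edgeR adjusted p = 0.00191), and Abca3, a lipid transporter of the Abca1 family, from 77.2 ± 3.02 to 43.3 ± 3.35 CPM (edgeR adjusted p = 2.85e-05). Plin3, which also binds lipid droplets, fell from 21.4 ± 2.97 to 15.8 ± 0.888 CPM (edgeR adjusted p = 0.0362), against the direction of Plin2. Mboat7 rose from 57.2 ± 2.36 to 67.6 ± 1.76 CPM (edgeR adjusted p = 0.0429, DESeq2 adjusted p = 0.0706). The calls of Plin3 and Mboat7 were each absent from 5 of 6 fits with 1 library left out.

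Among 12 tested PPAR receptors and targets besides Plin2, 1 was called higher and 0 lower. That gene was Decr1, of mitochondrial fatty acid oxidation, which rose from 15.3 ± 0.908 to 21.4 ± 1.62 CPM (edgeR adjusted p = 0.0121, and 0.0576 without B220+ replicate 3). Ppard stood at 37.1 ± 4.12 and 37.9 ± 1.95 CPM (edgeR adjusted p = 0.880). Of 21 genes of retinoid handling 8 were tested and 0 called by edgeR, with 1 at an unadjusted p under 0.05, 0 called by DESeq2 and 1 with the replicate block, the retinol dehydrogenase gene Rdh10 (log2 fold change -0.31, edgeR adjusted p = 0.0295). The retinoid-responsive genes of T cells were listed with earlier results of these data known, so their share called is a description. Of 5 tested, with a median log2 fold change of -0.46, 0 were called higher and 2 were not called. The uncalled 2 were Hic1 (337 ± 20.9 and 307 ± 25.6 CPM, edgeR adjusted p = 0.364) and P2rx7 (388 ± 18.8 and 348 ± 15.8 CPM, edgeR adjusted p = 0.201). The other 3 were called lower, against 5.56% of all genes tested. These were the gut-homing receptor genes Itga4 (215 ± 18.1 and 115 ± 3.53 CPM, edgeR adjusted p = 1.05e-05), Ccr9 (440.5 ± 40.9 and 307 ± 6.16 CPM, edgeR adjusted p = 6.34e-04) and Itgb7 (1024 ± 77.2 and 744 ± 45.1 CPM, edgeR adjusted p = 0.00218). The retinoid genes called lower thus included Dhrs3, Rara and these 3, while genes such as Tgm2 and Rarg lay in the other direction without a call. Whether retinoic acid signalling differed between the groups was not tested.

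**Figure D3:**
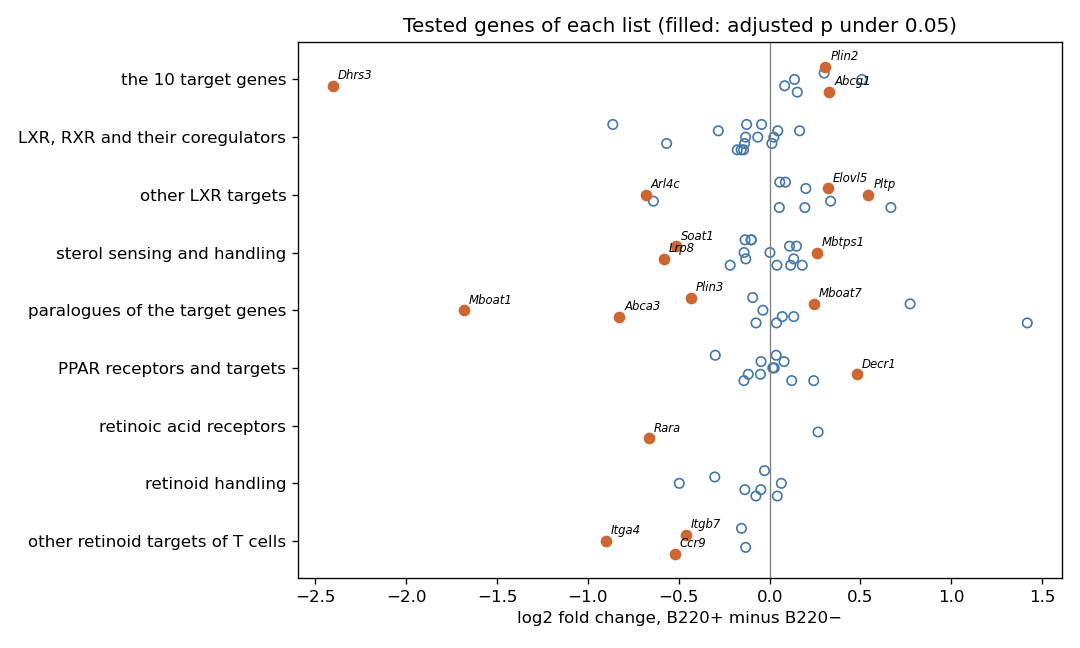
Log2 fold changes (B220+ minus B220-) of the tested genes in the target set and in 8 lists of receptors, pathway genes and paralogues, with genes called by edgeR filled and named. Only the retinoid-responsive genes of T cells and the retinoic acid receptors have calls in the lower direction alone, and Dhrs3 lies farthest from 0.

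The genes with the profile most like each called target gene were taken by Pearson correlation of log2 CPM over the 6 libraries, both groups together, among genes with a mean of at least 10 CPM. These values are descriptions, since a difference between the groups alone gives a high correlation. For Abcg1 they were Rsbn1l (r = 0.997), Zfp106 (r = 0.996) and Kit (r = 0.995), the stem cell factor receptor gene, which stood at 74.2 ± 26.7 and 269 ± 62.0 CPM (edgeR adjusted p = 0.0543). For Dhrs3 they were the ribosomal protein genes Rps14 (r = 0.994) and Rpl22l1 (r = 0.990) and the interferon-inducible GTPase gene Tgtp1 (r = 0.990), which fell from 16.1 ± 1.12 to 9.26 ± 2.22 CPM (edgeR adjusted p = 0.00597). For Plin2 they were Arsa (r = 0.991), Pigs (r = 0.991) and Repin1 (r = 0.988), of which Repin1 rose from 14.7 ± 0.184 to 20.5 ± 2.34 CPM (edgeR adjusted p = 0.0187).

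**Figure D4:**
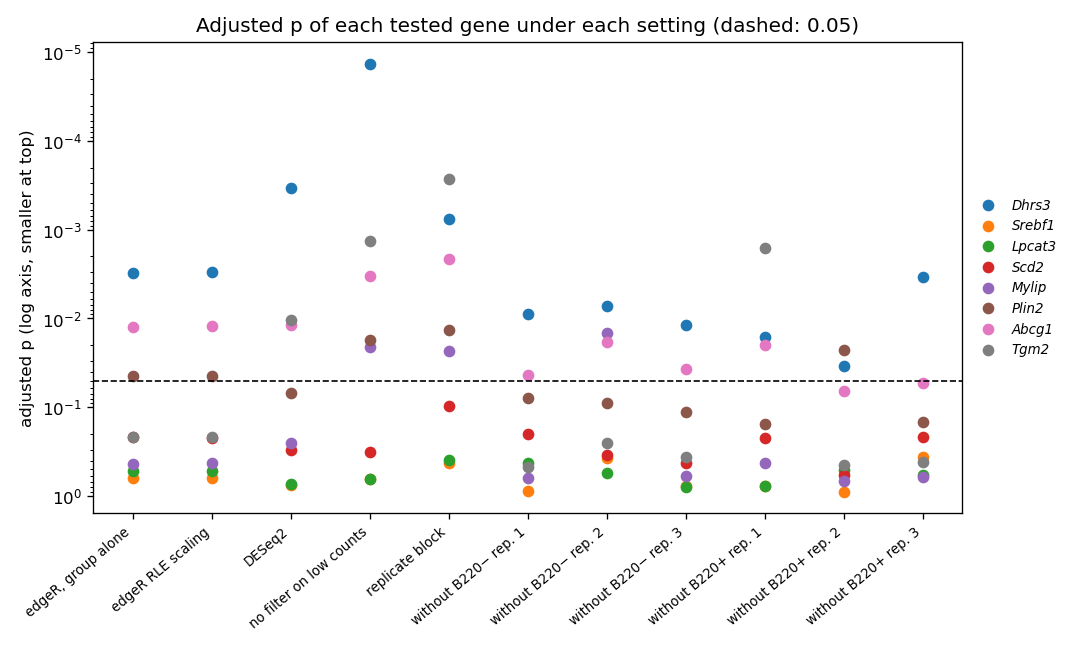
Adjusted p (log axis, smaller values at the top) of the 8 tested target genes in the edgeR fit with the group alone and in the 10 alternative fits, with a dashed line at 0.05. Dhrs3 lies past the line in every fit, Abcg1 in all but 2 alternatives, Plin2 in 4 of 10, Tgm2 in 4 of 10 and Mylip in 3 of 10, and Srebf1, Lpcat3 and Scd2 in none.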

How the data were processed

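The authors deposited raw counts of reads per gene, as whole numbers, for 6 libraries. Per the submitters' processing notes, FastQC 0.11.7, Trimmomatic 0.38, SAMtools 1.9, HISAT2 2.1.0 and featureCounts 1.6.3 were used, with mm10. For options, annotation release and strand setting, values were not given in the sources used here. Gene positions and exonic lengths came from GENCODE M21.

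Differences were fitted with edgeR 4.0.16 in R 4.3.3, with trimmed-mean scaling (factors 0.990 to 1.01), edgeR's default filter on low counts (10 in a library, 15 in all), the robust quasi-likelihood option, the group as sole term and Benjamini-Hochberg adjustment over 14722 genes. Alternatives were another scaling, DESeq2 1.42.0, no filter, the replicate block and leaving out each library. The fit was tested on simulated data. Chi-square per degree of freedom between libraries of 1 group was 7.27 to 16.4, so no library was taken as a repeat of another.

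The target genes and 14 other lists (194 entries, all matched) were chosen with earlier results of these data known. Named are the 10 target genes, 8 receptors, the called genes of each list (at most 4) and the 3 genes most like each called target gene. Other genes were singled out after their values were seen, and 1 listed gene is not reported here.

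Titles number the replicates of each group. Across genes, deviations from the group mean correlated at 0.295, 0.246 and 0.272 for libraries that share a number, against -0.203 to -0.0675 for the others. Deviations within a group cancel, so positive values for some pairs of libraries force negative ones for others, which are no separate evidence. The numbers were used as a block in an alternative fit, while the main calls came from the fit with the group alone. That the numbers pair the libraries is an inference from the data and not a label.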

Additional observations from a re-analysis of the deposited data

How the results depend on the processing

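Dhrs3 kept its direction and call in all 10 alternatives, and no tested target gene changed direction in any of them. The count of all genes called went from 1639 to 2569 with the replicate block (1303 higher, 1266 lower). Leaving out 1 library gave 970 (without B220+ replicate 2) to 1789 calls in all, with 1029 without B220- replicate 3, 425 to 966 higher and 545 to 823 lower, from fits with fewer samples. The count of target genes called went from 3 to 5 (4 higher) with no filter on low counts, where 2211 of all 26276 genes tested were called. With the replicate block it was also 5 (4 higher), where 17.5% of all genes tested were called. Mylip and Tgm2 were the added genes in both. When 1 library was left out, 1 to 3 target genes were called, with 0 higher without B220+ replicate 3 and 0 to 2 higher over the 6 fits. Those fits made the 970 to 1789 calls given above among 14860 to 15356 genes tested. The replicate block changed no other call among the target genes. The cause of these shifts was not tested. Abca1 and Cyp26b1, with 39 and 7 counts over the 6 libraries, could be tested only with no filter (edgeR adjusted p = 0.611 and 0.969), and depth limits what can be said of them. Dhrs3 rests on 125 counts.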
